A study of Homo sapiens with 9 samples.

Results

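The genes described here are 35 p53 target genes, taken from a list of names of known targets. The list was chosen with earlier results of these data known. All 35 were found by their Ensembl gene ID among the 57163 genes of the count table. The data were RNA-seq libraries, 1 per condition, of 293T cells, which derive from human embryonic kidney, taken 48 h after transfection. In 8 libraries the cells received a plasmid with the reading frame of 1 transcription factor (TF) in the lentiviral vector pLV[Exp]-EGFP-EF1A, in which the EF1A promoter drives the insert. The control library is labelled blank, and the methods of the study describe an empty plasmid. NRF1, E2F4, EGR1 and ZBTB7A are the CLB_TFs, the factors whose binding was tied to conserved lncRNAs, and HOXA11, RORA, TFCP2 and NKX2-8 are the control TFs. All 9 libraries share the cell line, and 293T cells carry the SV40 large T antigen, which binds p53. The comparisons ask which p53 target genes differed after each TF was overexpressed, and whether the 2 classes of TF differed.

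p53 is a transcription factor that accumulates when DNA is damaged or when cells are stressed. It binds pairs of a short half-site near its target genes and turns on genes that stop the cell cycle, repair DNA, alter metabolism or kill the cell, as well as genes such as MDM2 that act back on p53. Large T antigen holds p53 in a complex in which it activates these genes poorly, and many of them also answer to other TFs.

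The libraries held 14177970 to 18915400 counts, with a median of 17016549. Levels are given in CPM, the counts of a gene relative to the total of its library, scaled between libraries by the trimmed mean of M values (TMM). Each inserted TF had 40632 to 264495 counts in its own library. The control library stood apart for one of them, with 9812 counts of TFCP2 against 653 to 703 in the 7 libraries that received another TF, and its part in the results below was not tested. The NRF1 and EGR1 libraries had a count for 26166 and 26296 genes, against 23344 to 24593 in the others. The 293T markers summed to 1771 to 2317 CPM in every library. The leukocyte, fibroblast, keratinocyte, and hepatocyte and erythroid markers summed to 2.40 to 5.77, 27.2 to 43.6, 12.4 to 15.8 and 0.109 to 2.33 CPM, and KRT1, TTR, HBB and HBG1 were at 0 counts in all 9 libraries.

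A RefSeq promoter, from 250 bases before to 50 bases after the gene start (GRCh38.p14), was on hand for 30 of the 35 genes. The p53 half-site consensus, searched on both strands, matched in 4 of these 30 promoters and in 6.54% of all 27305 promoters. The 4 matches lay in AEN, FDXR, PLK2 and RPS27L. Their upstream 250 bases are shown because 2 of them, AEN and PLK2, were among the genes that rose, FDXR separated the TF classes and RPS27L stayed within 1.5-fold of the control. Each runs 5′ to 3′ in the direction of the gene, and capitals mark the half-site. The AEN promoter lies at chr15:88621090-88621339 on the plus strand, that of FDXR at chr17:74872995-74873244 on the minus strand, that of PLK2 at chr5:58460087-58460336 on the minus strand and that of RPS27L at chr15:63157478-63157727 on the minus strand.
AEN: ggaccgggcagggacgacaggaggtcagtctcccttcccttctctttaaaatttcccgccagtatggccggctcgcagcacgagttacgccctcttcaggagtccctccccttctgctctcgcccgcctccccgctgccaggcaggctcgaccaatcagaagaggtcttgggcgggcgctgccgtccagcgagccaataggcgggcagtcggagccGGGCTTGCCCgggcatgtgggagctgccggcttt
FDXR: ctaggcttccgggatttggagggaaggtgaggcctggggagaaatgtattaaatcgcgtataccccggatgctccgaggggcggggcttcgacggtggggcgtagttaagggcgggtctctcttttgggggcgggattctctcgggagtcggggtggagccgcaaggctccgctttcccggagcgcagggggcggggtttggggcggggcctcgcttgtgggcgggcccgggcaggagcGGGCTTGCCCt
PLK2: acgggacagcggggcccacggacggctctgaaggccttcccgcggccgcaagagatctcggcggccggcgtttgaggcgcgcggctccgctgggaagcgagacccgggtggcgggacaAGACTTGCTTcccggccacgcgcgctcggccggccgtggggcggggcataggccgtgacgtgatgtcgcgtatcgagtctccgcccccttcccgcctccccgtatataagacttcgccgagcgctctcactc
RPS27L: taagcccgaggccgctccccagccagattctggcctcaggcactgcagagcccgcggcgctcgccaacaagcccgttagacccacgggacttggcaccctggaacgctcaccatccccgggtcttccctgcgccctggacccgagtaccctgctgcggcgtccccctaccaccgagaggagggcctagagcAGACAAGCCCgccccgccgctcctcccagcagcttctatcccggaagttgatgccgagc
AEN and FDXR held the same 10 letters, GGGCTTGCCC, which start 34 and 11 bases before the gene start. The half-site of PLK2 starts 132 bases before its gene start and that of RPS27L 59 bases before. The E2F words TTTCCCGC, TTTCGCGC, TTTGCCGC and TTTGGCGC matched in the promoters of MDM2, AEN, CYFIP2 and XPC, 4 of 30, and in 3.33% of all promoters. The NRF1 word GCGCATGC and the EGR1 word GCGTGGGCG matched in 0 of the 30, against 3.27% and 0.784% of all promoters. A second EGR1 word, GCGGGGGCG, matched in BTG2 alone (5.02% of all promoters), and the NKX2 word TNAAGTG matched in TP53I3 alone (10.3% of all promoters). Both of these words were added after the values were seen. These matches describe letters in a window, and no binding was measured.

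All 35 genes were expressed, at a mean of 1.80 CPM for SFN to 321 CPM for CCNG1, and 28 had a mean of 10 CPM or more. Per kb of exon, the mean level ran from 0.932 CPM for PLK2 to 104 CPM for CCNG1. The ratio of the highest to the lowest library had a median of 1.49 over the 35 genes and of 1.37 over all 13983 genes at a mean of 1 CPM. It was under 1.5 for 18 of them (64.5% of all genes) and at least 2 for 8 (15.9% of all genes). The NKX2-8 library was the highest of the 9 for 13 genes, TFCP2 for 6, E2F4 and RORA for 4 each, the control for 3, NRF1 and ZBTB7A for 2 each, EGR1 for 1 and HOXA11 for 0. The lowest library was NRF1 for 14 genes and the control for 7. The highest and lowest libraries were not counted over all genes, so these orders are not read as particular to the 35 genes.

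With a single library per condition, a TF library against the control has no replicate check and no p-value. Differences are given as the log2 fold change (log2FC) with a prior count of 2, and as ratios of CPM with a 95% interval that covers counting error only. In 192 of the 280 pairs of gene and TF library the log2FC was above 0. It was above 0 with all 8 TFs for 7 genes (MDM2, PLK2, PLK3, AEN, POLH, GDF15 and ZMAT3), which is the same as being lowest in the control library. The log2FC was below 0 with all 8 for CCNG1, PERP and PMAIP1. With DESeq2 size factors or library totals alone, PERP left the latter set, and 9 and 12 genes were above 0 with all 8. Such sets were not counted over all genes, so they are not read as particular to the 35 genes. The median log2FC of the 35 genes was highest for NKX2-8, at 0.28, with 27 genes above 0. RORA followed with 0.25 (31 above 0), TFCP2 with 0.21 (29), E2F4 with 0.20 (23) and HOXA11 with 0.13 (28), while ZBTB7A had 0.04 (19), EGR1 0.02 (19) and NRF1 -0.01 (16). With library totals alone the NRF1 median turned to 0.14, together with a median of 0.11 over all genes. Over all genes, 42.6% to 49.8% were above 0 with TMM. These 8 comparisons share the control library. When the reference was in its place the average of the control TF libraries, leaving out the one compared, NRF1 had a median of -0.24, E2F4 -0.10, EGR1 -0.17, ZBTB7A -0.18, HOXA11 -0.11, RORA 0.037, TFCP2 -0.051 and NKX2-8 0.10, so the sign turned for E2F4, EGR1, ZBTB7A, HOXA11 and TFCP2.

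**Figure D1:**
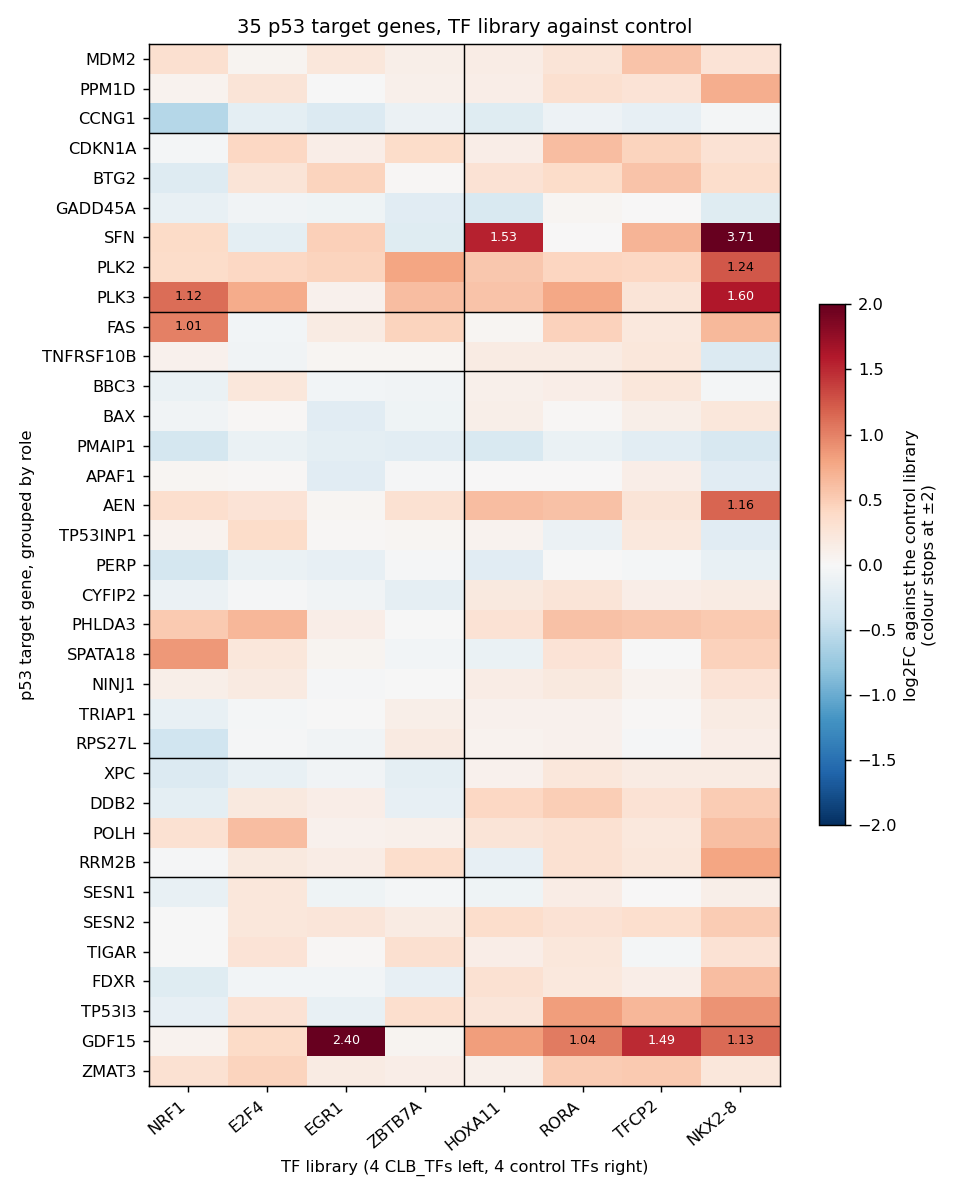
Log2FC of each p53 target gene (rows, grouped by role) in each TF library against the control library (columns), with red above and blue below 0 and numbers where the difference is at least 2-fold. The 11 numbered cells belong to 6 genes, 5 of them in the NKX2-8 column, and no cell is 2-fold lower.

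A difference of at least 2-fold, with at least 1 CPM in the higher library, was found in 11 pairs over 6 genes, SFN, GDF15, PLK3, PLK2, AEN and FAS, and all 11 were rises. In the NKX2-8 library 5 of 35 genes rose, against 2.83% of all genes at this level. In the NRF1 library 2 of 34 rose, against 8.24% of all genes. The EGR1, HOXA11, RORA and TFCP2 libraries each had 1 gene that rose, against 2.5%, 1.17%, 0.522% and 0.491% of all genes. E2F4 and ZBTB7A had 0, against 3.68% and 1.92%. None of the 35 fell 2-fold, and over all genes 0.235% fell with NRF1, 0.261% with E2F4, 0.28% with EGR1, 0.439% with ZBTB7A, 0.34% with HOXA11, 0.393% with RORA, 0.185% with TFCP2 and 0.879% with NKX2-8.

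At 1.5-fold the NKX2-8 library had 11 of 35 genes higher than the control, against 6.24% of all genes, and RORA had 6 of 34, against 2.31%. HOXA11 and TFCP2 had 3 of 35 each, against 3.9% and 2.34%. NRF1 and E2F4 had 3 of 34 each, against 13.8% and 8.23%, ZBTB7A had 2 of 34, against 4.99%, and EGR1 had 1 of 34, against 5.51%. With only 1 to 3 genes each for NRF1, E2F4, EGR1, ZBTB7A, HOXA11 and TFCP2, no difference from the share of all genes is read from these libraries. No gene of the 35 fell 1.5-fold against the control in any library. The NKX2-8 and RORA counts depended on the control library. Against the average of the other control TF libraries, no gene of the 35 was 1.5-fold higher with RORA. The highest there was CDKN1A, at a log2FC of 0.33. With NKX2-8, those still 1.5-fold higher were SFN, PLK3, PLK2, RRM2B and AEN (log2FC 2.97, 1.07, 0.78, 0.67 and 0.67).

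**Figure D2:**
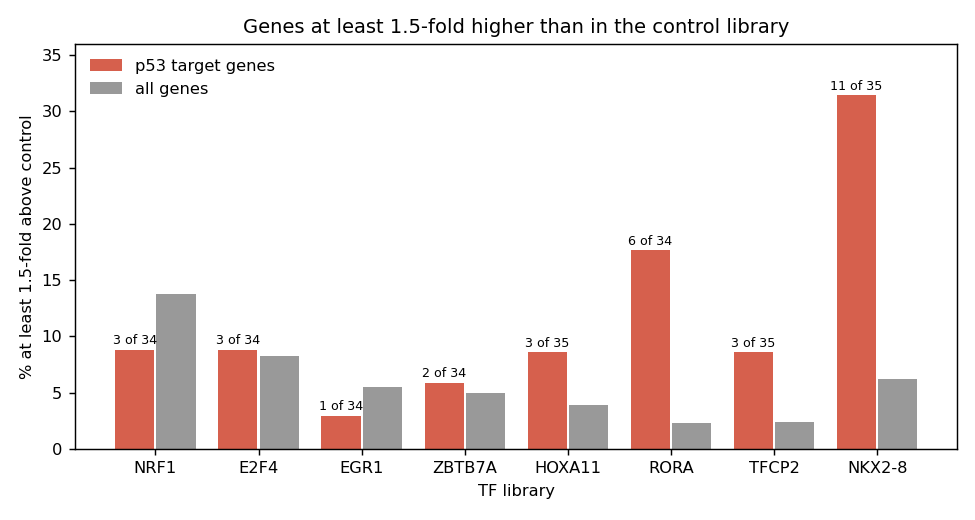
Percent of the p53 target genes (red) and of all genes (grey) that were at least 1.5-fold higher than in the control library, out of those with at least 1 CPM in the higher library, for each TF library. The bars of the p53 target genes stand above the grey ones for HOXA11, RORA, TFCP2 and NKX2-8, highest for NKX2-8 with 11 of 35. They stand slightly above the grey ones for E2F4 and ZBTB7A, and below them for NRF1 and EGR1.

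Among the genes that halt the cell cycle, SFN moved most. SFN (chr1:27189629-27190948, GRCh37) encodes 14-3-3 sigma, which keeps cyclin-dependent kinases out of the nucleus and is best known from keratinocytes and other epithelia. It had 140 counts in the NKX2-8 library and 11 in the control. The other TF libraries held 13 counts with NRF1, 9 with E2F4, 14 with EGR1, 7 with ZBTB7A, 33 with HOXA11, 10 with RORA and 18 with TFCP2. NKX2-8 and HOXA11, the only homeodomain factors among the 8, were thus the 2 highest libraries and the other 7 stayed at 0.484 to 1.03 CPM. The ratio to the control was 15.5 for NKX2-8 (8.42 to 31.8) and 3.28 for HOXA11 (1.62 to 7.20). The keratinocyte markers summed to 15.8 CPM in the NKX2-8 library and to 15.5 CPM in the control, and in both libraries this sum was KRT10 alone, with KRT5, KRT14, KRT1, TP63 and DSG3 at 0 counts.

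PLK2 and PLK3 encode polo-like kinases that act in stress responses, unlike the mitotic PLK1. PLK3 (chr1:45265897-45271662, GRCh37) had 72 counts in the control, 137 with NRF1, 118 with E2F4, 67 with EGR1, 88 with ZBTB7A, 99 with HOXA11, 112 with RORA, 82 with TFCP2 and 183 with NKX2-8. Its level was 3.91 CPM in the control and above that in all 8 TF libraries, with a ratio of 3.10 for NKX2-8 (2.35 to 4.13) and 2.21 for NRF1 (1.65 to 2.98). PLK2 (chr5:57749809-57756087, GRCh37) had 55 counts in the control, 62 with NRF1, 72 with E2F4, 66 with EGR1, 76 with ZBTB7A, 74 with HOXA11, 67 with RORA, 70 with TFCP2 and 109 with NKX2-8. The control library was again the lowest at 2.99 CPM and NKX2-8 the highest at 7.23 CPM, a ratio of 2.42 (1.73 to 3.41). ZBTB7A came next, with a ratio of 1.76 (1.23 to 2.53).

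CDKN1A, which encodes the cyclin-dependent kinase inhibitor p21 and is the best known arrest gene of p53, ran from 54.9 CPM with NRF1 to 85.9 CPM with RORA and had 56.2 CPM in the control. Its largest ratio was 1.53 with RORA (1.41 to 1.66), and with NKX2-8 it was 1.22 (1.12 to 1.33). BTG2, an antiproliferative gene that p53 and growth signals induce, had 573 counts in the control, 411 with NRF1, 669 with E2F4, 679 with EGR1, 457 with ZBTB7A, 644 with HOXA11, 663 with RORA, 808 with TFCP2 and 598 with NKX2-8. Its log2FC was lowest for NRF1, at -0.26, and highest for TFCP2, at 0.57. GADD45A, a stress sensor that binds cell cycle and repair proteins, kept to 79.0 to 100.1 CPM, the narrowest range of this group, with a highest to lowest ratio of 1.27.

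GDF15 (chr19:18485541-18499986, GRCh37), a secreted protein of the TGF-beta superfamily that many stresses induce, had the largest rise of the 35 genes in the EGR1 library. It had 257 counts in the EGR1 library and 54 in the control, and the other libraries held 49 with NRF1, 69 with E2F4, 44 with ZBTB7A, 90 with HOXA11, 102 with RORA, 148 with TFCP2 and 99 with NKX2-8. The EGR1 library stood alone at 16.1 CPM, followed by the 4 control TF libraries at 5.35 to 8.47 CPM, while the control and the other 3 CLB_TF libraries lay at 2.94 to 3.86 CPM. The ratio to the control was 5.47 for EGR1 (4.06 to 7.47), 2.89 for TFCP2 (2.10 to 4.02), 2.24 for NKX2-8 (1.59 to 3.18) and 2.10 for RORA (1.5 to 2.98). GDF15 was the only one of the 35 genes past 2-fold in the EGR1 library. ZMAT3, a zinc finger protein that binds RNA, ran from 12.8 CPM in the control to 18.3 CPM with TFCP2.

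**Figure D3:**
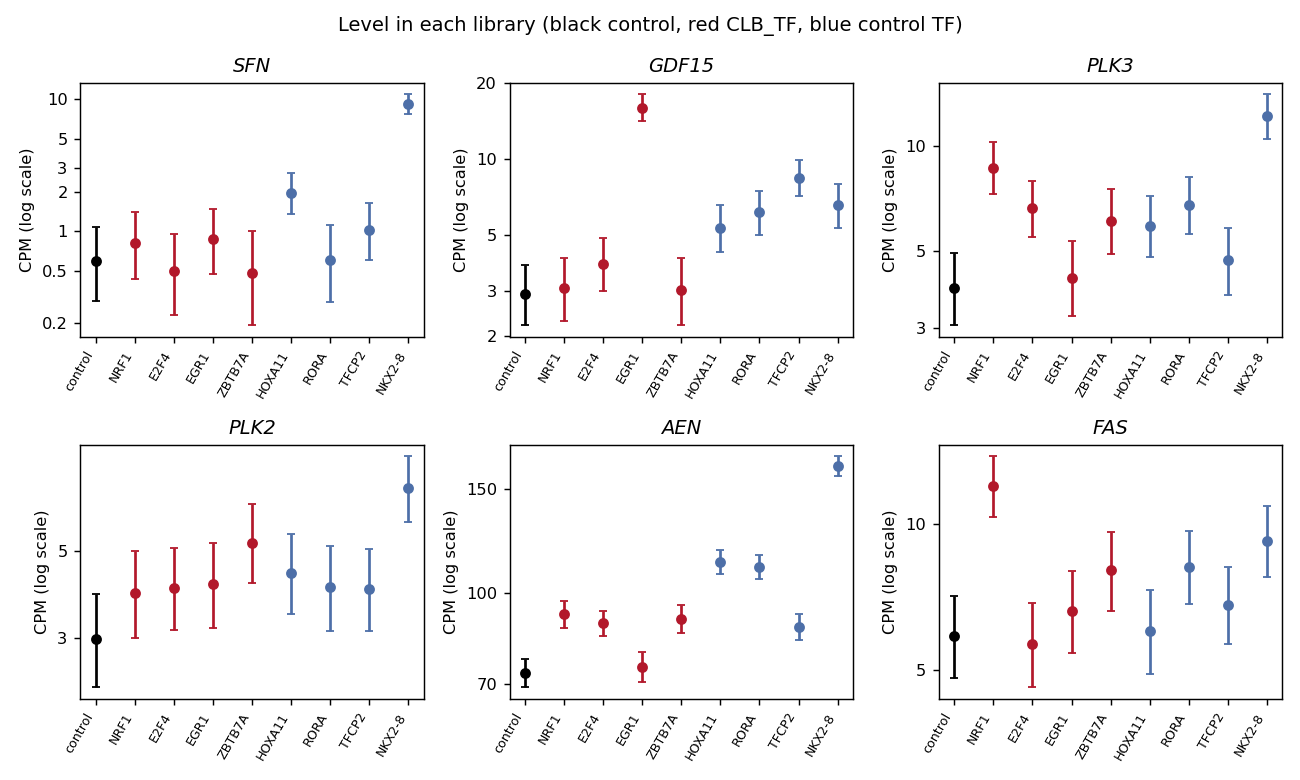
CPM (log scale) in each of the 9 libraries for the 6 genes that rose at least 2-fold in any TF library, with bars for the 95% Poisson interval of the count. NKX2-8 is the highest library for SFN, PLK3, PLK2 and AEN, EGR1 for GDF15 and NRF1 for FAS.

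The death receptors differed from each other. FAS (chr10:90750339-90775542, GRCh37) is the receptor of the Fas ligand and had 108 counts in the control, 190 with NRF1, 101 with E2F4, 106 with EGR1, 116 with ZBTB7A, 101 with HOXA11, 135 with RORA, 119 with TFCP2 and 139 with NKX2-8. NRF1 was the highest at 12.0 CPM, 2.04 times the control (1.6 to 2.61), and NKX2-8 the second at 9.22 CPM. ACTA2 on the opposite strand shares 8.9% of the exon bases of FAS and had 249 counts in the control and 237 with NRF1. These counts are not scaled to library size, which was 18915400 counts for the control and 14706961 for NRF1. TNFRSF10B, a receptor of the TRAIL ligand, lay at 53.1 to 65.3 CPM in 8 libraries and at 46.1 CPM with NKX2-8, a ratio to the control of 0.827 (0.750 to 0.912).

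Among the 13 other cell death genes only AEN rose 2-fold. AEN (chr15:89164527-89175513, GRCh37) encodes a nuclease that digests DNA in dying cells, and its counts were the deepest of the 6, at 1345 in the control, 1458 with NRF1, 1586 with E2F4, 1199 with EGR1, 1306 with ZBTB7A, 1896 with HOXA11, 1827 with RORA, 1530 with TFCP2 and 2466 with NKX2-8. NKX2-8 at 164 CPM was clear of HOXA11 and RORA at 113 and 110 CPM, and the control was the lowest at 73.1 CPM. The ratio was 2.24 for NKX2-8 (2.09 to 2.39). Among the genes that act on mitochondria, BBC3, which encodes PUMA, lay at 27.6 to 35.5 CPM. BAX, the pore-forming effector, lay at 68.8 to 94.2 CPM and was highest with NKX2-8, at 1.18 times the control (1.09 to 1.27). APAF1, the scaffold of the apoptosome, lay at 29.2 to 37.4 CPM. PMAIP1, which encodes NOXA, was highest in the control at 175 CPM and stood at 138 to 160 CPM in the TF libraries.

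PHLDA3, which holds back AKT at the membrane, had 387 counts in the control, 480 with NRF1, 599 with E2F4, 369 with EGR1, 302 with ZBTB7A, 431 with HOXA11, 524 with RORA, 539 with TFCP2 and 455 with NKX2-8. It was higher than the control with 7 of 8 TFs, most with E2F4 (ratio 1.59, 1.40 to 1.82). SPATA18, a gene for mitochondrial quality control, had 176 counts in the control, 279 with NRF1, 201 with E2F4, 160 with EGR1, 133 with ZBTB7A, 146 with HOXA11, 192 with RORA, 167 with TFCP2 and 200 with NKX2-8. It was highest with NRF1, at 1.84 times the control (1.52 to 2.23), and next with NKX2-8, at 1.39 times (1.13 to 1.71). The rest of this group, TP53INP1, PERP, CYFIP2, NINJ1, TRIAP1 and RPS27L, stayed within 1.5-fold of the control in every TF library. RPS27L, whose promoter holds a half-site, ran from 20.1 CPM with NRF1 to 30.0 CPM with ZBTB7A and had 26.5 CPM in the control, with a ratio of 0.758 for NRF1 (0.656 to 0.875).

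None of the 3 genes of the feedback on p53 passed 2-fold. MDM2, the ubiquitin ligase that marks p53 for degradation, was lowest in the control at 58.7 CPM and highest with TFCP2 at 86.8 CPM, a ratio of 1.48 (1.37 to 1.6). PPM1D, a phosphatase that reverses DNA damage signals, lay at 34.1 to 43.0 CPM in 8 libraries and at 57.0 CPM with NKX2-8, a ratio of 1.66 (1.5 to 1.84). CCNG1, cyclin G1, was the most abundant of the 35 and had the largest fall of any of them, though under 1.5-fold, with 364 CPM in the control, 244 CPM with NRF1 (ratio 0.671, 0.645 to 0.698) and 301 to 356 CPM with the other 7 TFs.

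In DNA repair and nucleotide supply, POLH, the polymerase that copies past UV lesions, had 370 counts in the control, 393 with NRF1, 550 with E2F4, 343 with EGR1, 313 with ZBTB7A, 404 with HOXA11, 412 with RORA, 406 with TFCP2 and 459 with NKX2-8. E2F4 and NKX2-8 were nearly level at 30.8 and 30.5 CPM, each about 1.5 times the control. RRM2B, a subunit of ribonucleotide reductase that supplies nucleotides outside S phase, lay at 30.2 to 43.0 CPM in 8 libraries and at 58.7 CPM with NKX2-8 (ratio 1.74, 1.57 to 1.93). In redox and metabolism, TP53I3, a quinone oxidoreductase, had 65 counts in the control, 50 with NRF1, 78 with E2F4, 51 with EGR1, 65 with ZBTB7A, 71 with HOXA11, 106 with RORA, 99 with TFCP2 and 101 with NKX2-8. RORA, TFCP2 and NKX2-8, 3 of the 4 control TFs, were the 3 highest libraries at 5.67 to 6.70 CPM, against 3.15 to 4.49 CPM in the other 6. SESN1, a stress-induced regulator of mTORC1, and TIGAR, which lowers glycolytic flux, stayed within 1.5-fold of the control throughout.

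Which genes passed 2-fold depended on the control library. Against the average of the control TF libraries the pairs that stayed at least 2-fold higher were SFN with NKX2-8 (log2FC 2.97), PLK3 with NKX2-8 (1.07) and GDF15 with EGR1 (1.28). AEN and PLK2 with NKX2-8 had a log2FC of 0.67 and 0.78, FAS and PLK3 with NRF1 0.68 and 0.32, SFN with HOXA11 0.07, and GDF15 with RORA, TFCP2 and NKX2-8 had -0.11, 0.49 and 0.01. On that reference SFN was at least 2-fold lower with NRF1, E2F4, EGR1, ZBTB7A, RORA and TFCP2 and GDF15 with NRF1 and ZBTB7A. The mean for SFN includes the NKX2-8 library.

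The comparison of the 2 TF classes is the only one with a test, in which the 4 TFs of each class took the place of replicates and the control library is left out. In edgeR's quasi-likelihood test over 15012 genes, 0 of the 35 had a Benjamini-Hochberg adjusted p under 0.05, and the lowest was 0.0922. Of all genes, 0.04% were called higher (6 genes) and 0% called lower with the CLB_TFs. At an unadjusted p under 0.05, 10 of the 35 were lower with the CLB_TFs and 0 were higher, against 668 and 863 of the 15012 genes. The difference, CLB_TF minus control TF on the log2 scale, was below 0 for 30 genes and above 0 for 5, with a median of -0.13 against 0.00 over all genes tested. DESeq2 called 4 of the 35, all lower with the CLB_TFs, CYFIP2, XPC, DDB2 and FDXR. Over all 15012 genes it called 34 lower and 108 higher. edgeR with no filter on low counts called these 4 and AEN and SFN, all lower, with 73 lower and 722 higher over 35115 genes. Without the EGR1 library edgeR called XPC alone, with 1 lower and 59 higher over 15263 genes. AEN and SFN leaned on the NKX2-8 library. With the filter, leaving it out moved their class difference from -0.44 to -0.25 and from -2.23 to -0.82.

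For 5 genes, named here after their values were seen, the 2 classes did not overlap, and for all 5 the control TF libraries were the higher ones. Over all genes at a mean of 1 CPM, 4.6% were so ordered and 2.37% had the CLB_TFs higher. DDB2 and XPC recognize UV damage for nucleotide excision repair. XPC (chr3:14186647-14220283, GRCh37) stood at 64.5 CPM with NRF1, 70.5 with E2F4, 74.4 with EGR1, 67.9 with ZBTB7A, 82.7 with HOXA11, 91.5 with RORA, 88.0 with TFCP2 and 87.5 with NKX2-8, and the control lay between the classes at 78.2 CPM. The class difference was -0.32 (SE 0.06, adjusted p = 0.0922 in edgeR, range over the alternatives 0.000366 to 0.413). LSM3, on the opposite strand, shares 6.6% of the exon bases of XPC. DDB2 (chr11:47236016-47260791, GRCh37) stood at 29.9 CPM with NRF1, 39.5 with E2F4, 37.6 with EGR1, 30.7 with ZBTB7A, 46.0 with HOXA11, 48.2 with RORA, 42.2 with TFCP2 and 48.8 with NKX2-8. The control at 34.4 CPM lay inside the range of the CLB_TFs, and the class difference was -0.42 (SE 0.10, edgeR adjusted p = 0.183, range 0.000122 to 0.434).

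CYFIP2 (chr5:156693089-156822603, GRCh37), a member of the WAVE complex that acts on actin, stood at 125 CPM with NRF1, 133 with E2F4, 129 with EGR1, 119 with ZBTB7A, 155 with HOXA11, 162 with RORA, 148 with TFCP2 and 151 with NKX2-8. Its control library at 135 CPM was just above the CLB_TFs, and the class difference was -0.27 (SE 0.05, edgeR adjusted p = 0.0922, range 0.000755 to 0.413). FDXR (chr17:72858619-72869156, GRCh37), the mitochondrial ferredoxin reductase, stood at 37.2 CPM with NRF1, 42.5 with E2F4, 42.3 with EGR1, 39.0 with ZBTB7A, 54.7 with HOXA11, 51.1 with RORA, 48.5 with TFCP2 and 67.9 with NKX2-8, and at 44.0 CPM in the control. Its class difference was -0.45 (SE 0.10, edgeR adjusted p = 0.169, range 3.86e-06 to 0.413). SESN2 (chr1:28586038-28609002, GRCh37), a leucine sensor that restrains mTORC1, stood at 95.5 CPM with NRF1, 112 with E2F4, 114 with EGR1, 107 with ZBTB7A, 122 with HOXA11, 117 with RORA, 121 with TFCP2 and 137 with NKX2-8. The control was close to the lowest of them at 95.7 CPM, and the class difference was -0.20 (SE 0.07, edgeR adjusted p = 0.356, range 0.0591 to 0.624).

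**Figure D4:**
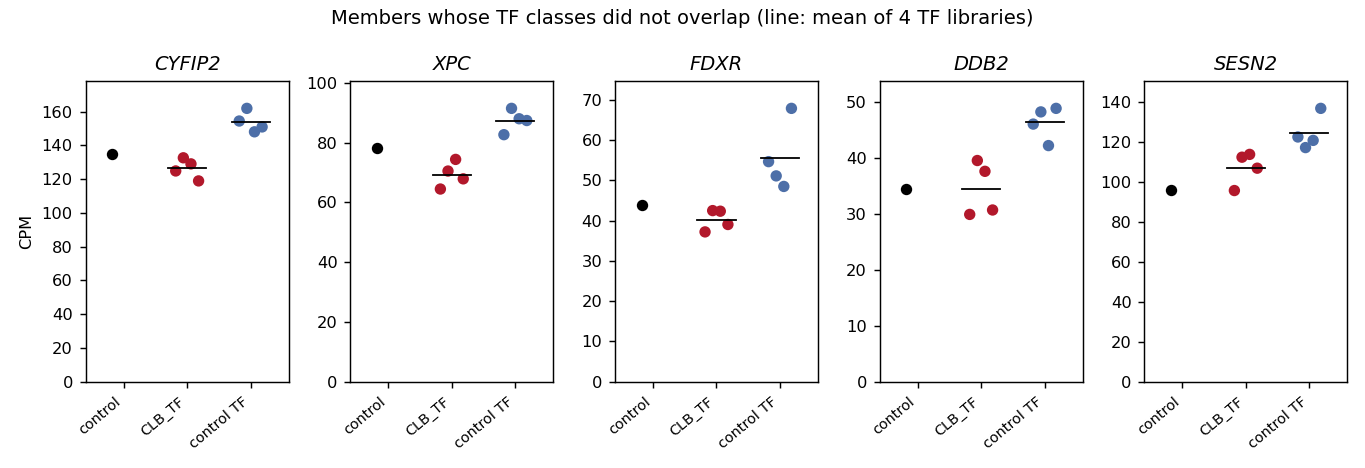
CPM of the 5 genes whose TF classes did not overlap, with the control library in black, the 4 CLB_TF libraries in red, the 4 control TF libraries in blue and a line at the mean of each class. The red points lie below the blue ones in each panel, by a class difference of -0.20 for SESN2 to -0.45 for FDXR on the log2 scale.

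The other genes of the pathway come from lists of general knowledge. Of 47 further p53 targets, 39 had a mean of 1 CPM or more, and 4 rose with NKX2-8 (2.83% of all genes), 3 with HOXA11 (1.17%), 2 with NRF1 (8.24%), 2 with EGR1 (2.5%) and 0 with the other 4 TFs. The NKX2-8 rises were DRAM1 (ratio 2.38, 1.61 to 3.58), an autophagy gene, and EPS8L2 (5.23, 2.25 to 14.1), which had 7 counts in the control. LIF (2.42, 1.70 to 3.48), a cytokine, and SERTAD1 (2.35, 1.74 to 3.21) were the others. All 4 were lowest in the control library, and only DRAM1 was highest with NKX2-8. EPS8L2 and LIF were highest with NRF1, at 2.08 and 9.52 CPM against 1.99 and 6.44 CPM with NKX2-8. SERTAD1 was highest with EGR1, at 9.80 CPM against 8.56 CPM with NKX2-8. Among the listed regulators and relatives, TP73, a known E2F target, rose with E2F4 alone, from 19.1 CPM in the control to 63.8 CPM. In the E2F4 library 3.68% of all genes rose. MDM4, which inhibits p53 together with MDM2, was lowest with NKX2-8, at 22.0 CPM against 32.7 CPM in the control. Of the 25 genes that p53 represses through the DREAM complex and the 18 genes of the integrated stress response, 0 rose or fell 2-fold with any TF. Of 9 lncRNAs linked to p53, PVT1 rose with NRF1 (ratio 2.13, 1.66 to 2.75) and with NKX2-8 (2.07, 1.61 to 2.68), against 8.24% and 2.83% of all genes. PVT1 was lowest in the control at 5.38 CPM, and had 9.40 CPM with E2F4 and 9.05 CPM with ZBTB7A. The edgeR class test called 0 genes of these 5 lists.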

How the data were processed

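Per the methods of the study, quality control by the authors used FastQC 0.11.2, alignment to GRCh37 used STAR 2.6.0c on paired reads, and featureCounts 1.6.3 gave the number of uniquely aligned reads of each gene. The deposited values are raw counts per gene, with no normalization. The library kit was directional, but whether the counting used strand is not stated in these sources. 21 of the 35 genes share exon bases with a gene on the opposite strand and 1 with a gene on the same strand, and reads there are uncertain. RPS27L has a close paralog, RPS27.

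Gene IDs were matched to symbols in GENCODE v44lift37. TMM factors over all 9 libraries came from edgeR 4.0.16 under R 4.3.3. A gene rose or fell against the control at 2-fold and 1 CPM. Ratios have exact conditional binomial intervals. The TF classes, which the study gives in its text and the labels do not, were compared with glmQLFit and glmQLFTest after filterByExpr, adjusted over all genes by the Benjamini-Hochberg method. The edgeR test, but not the DESeq2 test, was tried on simulated counts with the same dispersion for every gene. DESeq2 1.42.0, other scalings, filters, prior counts, thresholds, a second reference and leaving out each library were the alternatives.

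The 35 genes and the other lists were chosen with earlier results of these data known, and the lists and the roles come from general knowledge. Values in every library were given for genes past 2-fold in any TF library and for the 3 with the largest absolute log2FC in each. No separate cultures are stated for a condition, so p-values measure the spread between TFs. Promoter sequences come from RefSeq (GRCh38.p14), and gene positions from the deposited table (GRCh37). The values of 1 listed gene are not reported here.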

Additional observations from a re-analysis of the deposited data

Results flagged for a closer look

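Each of the 35 genes was looked at in the 4 CLB_TF and in the 4 control TF libraries for a single library far from the other 3 on the log2 CPM scale, and 5 of 70 such groups passed Dixon's 95% limit for 4 values. Chance flags about 1 in 20 groups, and the libraries of a class hold different TFs. GDF15 in the EGR1 library lay at 16.1 CPM against 3.04 to 3.86 CPM in the other CLB_TF libraries, a gap of 0.858 of the range in log2. AEN in the EGR1 library was the low one, at 74.9 CPM against 88.8 to 91.9 CPM (0.830 of the range in log2 and 0.815 on CPM itself, which is under the limit). TP53INP1, a regulator of autophagy and cell death, was high in the E2F4 library, at 9.63 CPM against 7.56 to 7.82 CPM (0.859). In the NKX2-8 library PLK2 was high, at 7.23 CPM against 4.01 to 4.40 CPM in the other control TF libraries (0.842), and TNFRSF10B was low, at 46.1 CPM against 62.2 to 65.3 CPM (0.860).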

How the results depend on the processing

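Under DESeq2 size factors, library totals alone, a prior count of 0.5 and no minimum level, each count of the 35 genes past 2-fold stayed within 1.5 times, and the medians kept their sign except for NRF1 with library totals alone, at 0.14. With the control library replaced by the average of the control TFs, the median log2FC became -0.24 (NRF1), -0.10 (E2F4), -0.17 (EGR1), -0.18 (ZBTB7A), -0.11 (HOXA11), 0.037 (RORA), -0.051 (TFCP2) and 0.10 (NKX2-8), the genes past 2-fold numbered 1 (E2F4), 2 (EGR1), 2 (ZBTB7A), 0 (HOXA11) and 2 (NKX2-8), and GDF15 with RORA turned to -0.11. A prior count of 5 left 1 gene with NRF1 and 0 with RORA, and a minimum of 5 CPM left 0 with HOXA11. At 1.5-fold the counts were 3 (E2F4), 2 (ZBTB7A), 3 (HOXA11), 6 (RORA), 3 (TFCP2) and 11 (NKX2-8). Between the classes, DESeq2 called 4 of the 35 and 142 genes in all, and no filter on low counts 6 and 795. Leaving out each TF library in turn gave 0 to 1 of the 35 (1 without EGR1) and 0 to 60 genes in all, with the cause not tested. In that series the class difference ran from -0.15 to 0.26 for FAS, -0.16 to 0.052 for POLH, -0.071 to 0.29 for SPATA18, -0.27 to 0.072 for PLK2, -0.37 to 0.16 for PLK3 and -0.98 to 0.22 for GDF15, and so turned sign in each; none of these 6 was called. No paired analysis was possible because each condition had 1 library. Depth limits SFN, PLK2, TP53I3, GDF15, PLK3 and FAS most.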
